A study of Mus musculus with 6 samples.

Results

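Interferon-stimulated genes and the receptors of interferon were followed in sorted mouse kidney cells early after ischemia. A list of 38 genes was read by symbol from the 37583 genes of the deposited table, and all 38 were found there. They comprised 20 targets of type I interferon, 5 targets of type II interferon, 6 transcription factors, 3 RNA sensors and 4 receptor subunits. The cells were EGFP-positive cells of the renal medulla, sorted in 2 rounds from B1 VATPase EGFP mice aged 12 weeks. According to the design text, EGFP in these transgenic animals marks intercalated cells, the acid- and base-transporting cells of the collecting duct; the labels give other entries, described below. Cells were collected 2 h after sham surgery (3 samples) or 2 h after renal ischemia reperfusion injury (IRI, 3 samples), in which the blood flow of the kidney is interrupted and restored. No drug was given, and each sample pooled 4 kidneys of 2 mice, so a sample is not a single animal. Nothing in the labels says whether the pools of a group were made on separate days, so the tests measure only the spread between pools, which may be partly technical.

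Type I interferons signal through the receptor subunits Ifnar1 and Ifnar2, and type II interferon (interferon gamma) through Ifngr1 and Ifngr2. Janus kinases bound to the receptors phosphorylate STAT proteins. A complex of STAT proteins with Irf9 binds the interferon-stimulated response element, whereas STAT dimers bind the gamma-activated site. The resulting proteins block steps of viral replication, and some of them (Ddx58, Ifih1) are themselves sensors whose signal, through Mavs and Irf3, switches on interferon genes.

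The libraries held 17421669 to 24245330 reads counted in genes, and 18621 to 19434 genes had at least 1 read. The labels contradict the design text: the genotype entry places EGFP under control of CX3CR1, a gene of macrophages and related cells, and the tissue entry names epididymis. The description of the cells here follows the design text. Cx3cr1 itself had 1 read over sham and 1 over IRI. Of 8 epididymal genes, Spink8 was abundant at 1001.6 to 2147 RPKM, Defb2 stood at 29 ± 9.84 RPKM in sham and 15.6 ± 8.46 RPKM after IRI, and Cst8 had 100 reads over sham and 75 over IRI. The other 5 had 0 to 9 reads over either group, with Lcn5 and Lcn8 at 0 in every library. RPKM, a read count divided by gene length and library size, is the unit used here to compare levels between genes. Intercalated cell markers were abundant: Car2 (carbonic anhydrase 2) stood at 5363 ± 558 RPKM in sham (SD, n = 3) and 5289 ± 639 RPKM after IRI, and the 10 markers of that list summed to 21238 to 27345 CPM (counts scaled to the same library size) in sham and 22863 to 27703 CPM after IRI. Aqp2, the water channel of principal cells, was as abundant, at 6711 ± 249 and 4605 ± 1749 RPKM, and the 6 principal cell markers summed to 11217 to 12401 CPM in sham and 5424 to 10592 CPM after IRI. In the edgeR test described below, 0 of the 10 intercalated cell markers were called higher and 2 lower. These were Atp6v1b1 (log2 -0.37 ± 0.13 SE, adjusted p = 0.0427) and Kit (log2 -0.80 ± 0.16, adjusted p = 0.00414). Of 5 tested principal cell markers, 0 were called higher and 2 lower: Aqp3 (log2 -0.40 ± 0.12, adjusted p = 0.0273) and Hsd11b2 (log2 -1.51 ± 0.29, adjusted p = 0.00549). Over all genes tested, 24.2% were called higher and 21.2% lower. In such bulk samples, fewer cells of a type and less RNA per cell cannot be told apart.

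The 250 bases before the transcription start are shown for members whose promoters carry the response element, because these letters are where the interferon-activated complex can bind. RefSeq promoter sequences (GRCm38.p6) were matched by symbol for 30 of the 38 genes; Dhx58, Iigp1, Mx1, Mx2, Oas2, Parp14, Rtp4 and Usp18 had no entry. The response element was searched on both strands as GAAA, NN (any 2 bases), GAAA, from 250 bases before to 50 bases after each start. It was present in 15 of the 30 genes (50%), against 1079 of 27025 genes (3.99%) in the whole promoter table. Of the 24 matched genes that were called higher after IRI below, 12 held it, and of the 6 others 3 held it. Capitals mark the response element, sequences run 5′ to 3′ on the strand of the gene, and the genes are those called higher with the smallest adjusted p. The promoter of Rsad2 (chr12:26456453-26456702, minus strand), Irgm1 (chr11:48871421-48871670, minus strand), Isg15 (chr4:156200819-156201068, minus strand), Ifit1 (chr19:34640639-34640888, plus strand) and Gbp2 (chr3:142620413-142620662, plus strand) read as follows.
Rsad2: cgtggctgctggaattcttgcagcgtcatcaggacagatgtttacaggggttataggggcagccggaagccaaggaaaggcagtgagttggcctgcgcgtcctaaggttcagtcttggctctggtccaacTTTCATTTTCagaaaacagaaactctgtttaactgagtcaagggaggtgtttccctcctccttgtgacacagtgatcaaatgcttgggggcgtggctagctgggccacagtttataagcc
Irgm1: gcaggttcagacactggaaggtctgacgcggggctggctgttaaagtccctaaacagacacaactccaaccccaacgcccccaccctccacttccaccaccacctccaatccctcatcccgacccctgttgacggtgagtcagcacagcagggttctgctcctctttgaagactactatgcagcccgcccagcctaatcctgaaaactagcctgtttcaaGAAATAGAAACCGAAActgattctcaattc
Isg15: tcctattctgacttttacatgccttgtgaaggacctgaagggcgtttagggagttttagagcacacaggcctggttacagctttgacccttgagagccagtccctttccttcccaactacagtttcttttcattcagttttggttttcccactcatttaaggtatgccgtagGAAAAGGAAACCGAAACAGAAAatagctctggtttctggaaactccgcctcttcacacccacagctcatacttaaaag
Ifit1: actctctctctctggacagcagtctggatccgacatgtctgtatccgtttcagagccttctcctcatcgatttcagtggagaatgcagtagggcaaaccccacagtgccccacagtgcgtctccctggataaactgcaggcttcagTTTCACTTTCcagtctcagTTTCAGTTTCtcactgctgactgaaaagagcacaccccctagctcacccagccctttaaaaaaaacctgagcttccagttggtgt
Gbp2: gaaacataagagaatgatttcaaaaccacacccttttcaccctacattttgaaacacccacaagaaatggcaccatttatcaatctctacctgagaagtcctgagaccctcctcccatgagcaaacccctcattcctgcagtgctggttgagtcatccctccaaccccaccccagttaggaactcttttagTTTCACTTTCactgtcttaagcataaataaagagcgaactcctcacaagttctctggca
In Isg15, 3 matches overlapped to form a single run that began 78 bases before the start, and in Irgm1 2 matches overlapped from 30 bases before it. Ifit1 held 2 separate matches, at 104 and 85 bases before the start.

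In Ddx58 the match lay just inside the transcribed region, with its first base at position 3 counted from the start site as 1. A window of 30 bases around it (chr4:40239804-40239833, minus strand) is shown for that reason.
Ddx58: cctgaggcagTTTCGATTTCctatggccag
Ifit3 is shown as a contrast, chosen after its values were seen, because its promoter (chr19:34583279-34583528, plus strand) holds 2 response elements while its transcript had no call.
Ifit3: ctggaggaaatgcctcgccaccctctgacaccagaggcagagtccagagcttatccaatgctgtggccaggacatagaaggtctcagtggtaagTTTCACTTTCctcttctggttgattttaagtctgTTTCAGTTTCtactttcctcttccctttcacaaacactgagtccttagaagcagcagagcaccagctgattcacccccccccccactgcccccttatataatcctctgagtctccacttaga
The gamma-activated site was searched as TTCNNNGAA, which reads the same on both strands. It was present in 9 of the 30 matched genes (30%) and in 2582 of 27025 genes (9.55%) of the table. In Bst2 the site overlapped a response element, and in no other member. Irf1, the factor with the largest change, held 1 such site 90 bases before its first start (chr11:53769764-53770013, plus strand), and no response element in the window. It is printed with the gamma-activated site in capitals and was chosen after its values were seen.
Irf1: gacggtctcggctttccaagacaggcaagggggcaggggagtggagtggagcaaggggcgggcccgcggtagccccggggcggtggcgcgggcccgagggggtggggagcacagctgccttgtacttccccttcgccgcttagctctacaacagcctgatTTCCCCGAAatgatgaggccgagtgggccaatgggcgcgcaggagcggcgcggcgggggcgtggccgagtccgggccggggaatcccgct
Among the roles, the response element was found in 4 of 4 matched type II targets, 7 of 14 type I targets, 2 of 6 factors, 2 of 2 sensors and 0 of 4 receptors. Ifnar1 and Ifnar2 each held a gamma-activated site. A match describes letters only, and no match says nothing about binding elsewhere.

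**Figure D1:**
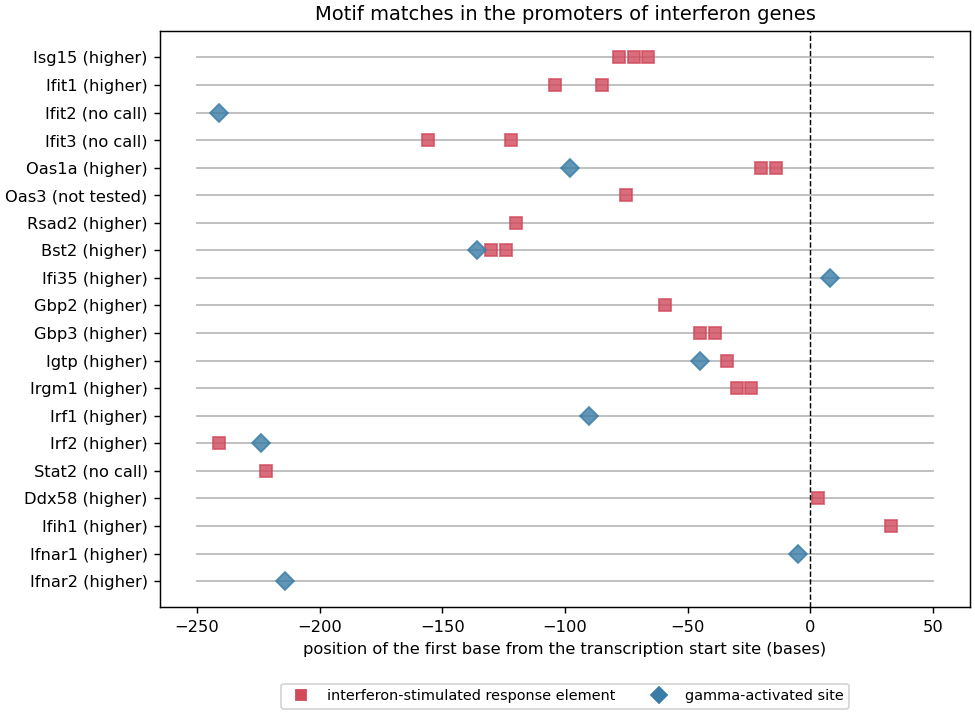
Each line is a promoter window from 250 bases before to 50 bases after the transcription start, and marks give the first base of each response element (squares) or gamma-activated site (diamonds) in the 20 genes with a match. Most response elements lie within 160 bases before the start, while those of Irf2 and Stat2 lie over 200 bases before it and those of Ddx58 and Ifih1 just after it.

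Most interferon genes were more abundant in cells from injured kidneys. Of the 38 genes, 36 had enough reads to be tested, 28 were called higher after IRI and 0 were called lower (edgeR's quasi-likelihood test, Benjamini-Hochberg adjusted p under 0.05 over all 13881 genes tested). Of all genes tested, 24.2% were called higher and 21.2% lower. The members were chosen with earlier results of these data known, so a count above these shares is not independent evidence. In 29 of the 38 genes, every IRI library lay above every sham library, which was so for 29.2% of all genes tested, and in 0 every IRI library lay below (27.2% of all genes tested). With an unadjusted p under 0.05, 30 were higher and 0 lower. DESeq2 called 30 higher and limma-voom 29, and both called 0 lower. The median log2 fold change of IRI over sham was 1.19 over the 36 genes and 0.00 over all genes tested. Of the tested members, 35 passed the filter on low counts in all 3 sham libraries, and Mx2 passed it only through the IRI libraries. The number called was 23 with library size as the only scaling, where 17.3% of all genes were higher, and 23 to 28 without any 1 library.

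By role, 13 of 20 type I targets, 5 of 5 type II targets, 4 of 6 transcription factors, 2 of 3 RNA sensors and 4 of 4 receptor subunits were called higher. The medians of the log2 fold changes were 1.43, 1.68, 0.96, 1.14 and 1.02 in that order, over the 18, 5, 6, 3 and 4 genes tested. The roles overlapped widely: type I targets ran from 0.01 to 3.44, type II targets from 0.90 to 2.45, factors from 0.18 to 2.80, sensors from 0.70 to 1.83 and receptors from 0.41 to 1.68. No test between roles was made, since their genes are not replicates.

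**Figure D2:**
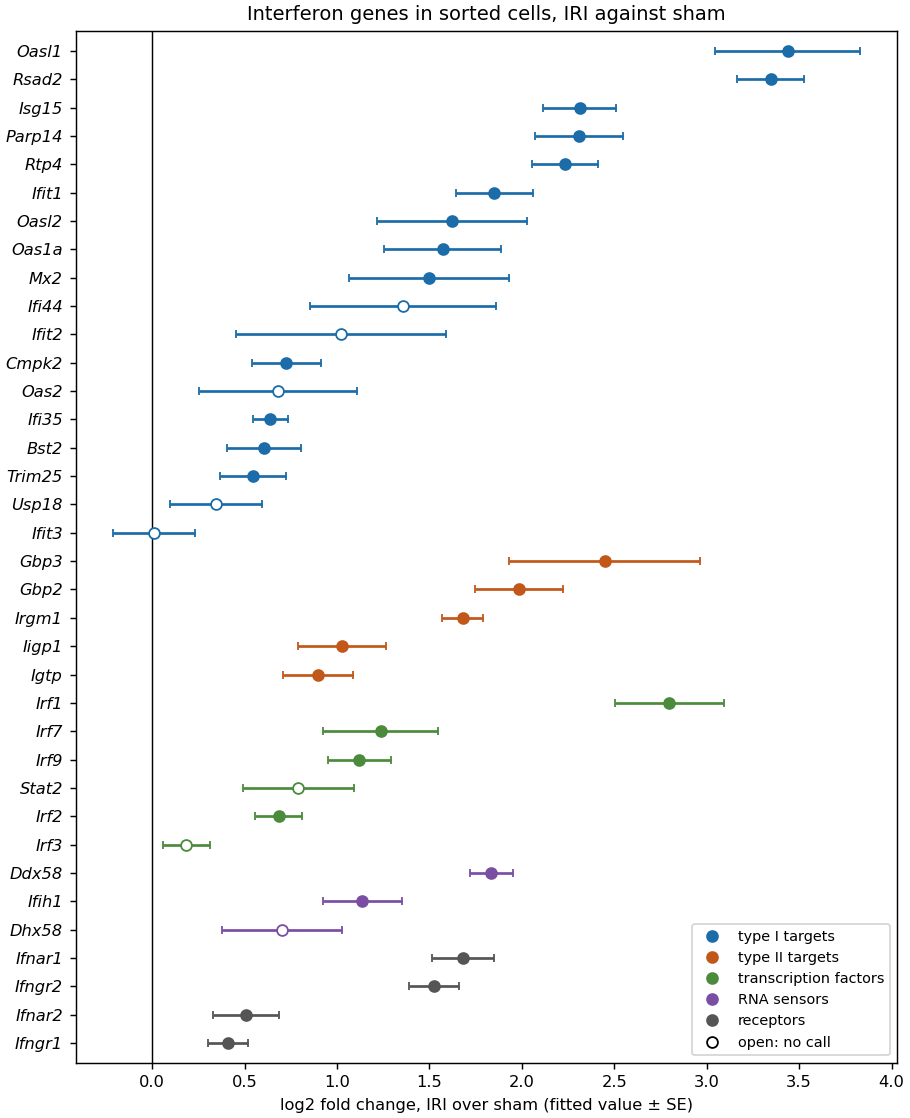
Fitted log2 fold change of IRI over sham (horizontal axis) with its SE for the 36 tested genes, ordered within each role, with filled points for genes called higher. All 36 points lie above 0, from 0.01 for Ifit3 to 3.44 for Oasl1 (scaled by library size alone, Ifit3 and Irf3 fall below 0), and the 8 open points are spread over the type I targets, the factors and the sensors.

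The type I targets with the largest changes were Oasl1 and Rsad2. Oasl1, a protein of the oligoadenylate synthetase-like family, stood at 0.493, 0.241 and 0.288 RPKM in sham replicates 1, 2 and 3 and at 2.12, 4.47 and 4.35 RPKM in the IRI replicates. It rose 10.8-fold (log2 3.44 ± 0.39 SE, adjusted p = 0.000228), although IRI replicate 1 held less than 0.5 of the level of the others. Rsad2 (viperin), which makes an antiviral nucleotide, stood at 0.976, 1.32 and 0.876 RPKM in sham and at 10.3, 12.1 and 9.11 RPKM after IRI. Its groups were far apart relative to their spread. Cmpk2, a nucleotide kinase whose gene is the direct neighbour of Rsad2, moved much less: 2.06, 1.81 and 1.58 RPKM in sham against 3.17, 3.20 and 2.43 RPKM after IRI (log2 0.73 ± 0.19, adjusted p = 0.0124). Its call was lost with library size alone (adjusted p = 0.0573) and without sham replicate 3 (0.069) or IRI replicate 2 (0.0548).

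Isg15, the ubiquitin-like protein that is attached to other proteins, had the smallest spread between IRI libraries of the 36 tested genes, with an SD of 0.961% of the mean. It stood at 3.64, 2.50 and 3.13 RPKM in sham and at 15.1, 15.1 and 14.8 RPKM in IRI, a rise of 4.97-fold (log2 2.31 ± 0.20, adjusted p = 4.88e-05). Usp18, the protease that removes Isg15 and dampens signalling at Ifnar2, gave 3.78, 4.60 and 4.11 RPKM in sham and 6.19, 3.25 and 6.06 RPKM after IRI, with no call (log2 0.35 ± 0.25, adjusted p = 0.288). IRI replicate 2 lay below all sham libraries for Usp18, and without it the gene was called higher (log2 0.57, adjusted p = 0.0413). Rtp4 went from 3.76 ± 0.788 to 17.2 ± 1.25 RPKM (SD, n = 3 each) and Parp14, a mono-ADP-ribosyltransferase, from 0.236 ± 0.0496 to 1.14 ± 0.209 RPKM. Both were called higher (log2 2.23 ± 0.18 and 2.31 ± 0.24, adjusted p = 3.6e-05 and 0.000113).

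The Ifit genes of chromosome 19, which encode RNA-binding proteins, did not move alike. Ifit1 stood at 1.60, 1.65 and 1.40 RPKM in sham and at 4.44, 5.00 and 6.96 RPKM after IRI (log2 1.85 ± 0.21, adjusted p = 0.00019). Ifit3 stood at 2.74, 3.24 and 2.64 RPKM in sham and at 2.52, 2.43 and 3.53 RPKM after IRI, and the groups overlapped (log2 0.01 ± 0.22, adjusted p = 0.974). Ifit2 gave 0.160, 0.182 and 0.272 RPKM in sham and 0.201, 0.223 and 0.783 RPKM after IRI (log2 1.02 ± 0.57, adjusted p = 0.175). For Ifit2, 1 library held the difference: without IRI replicate 3 the log2 value was 0.10. Ifit3 shares 97.4% of its transcript at 95% identity or more with Ifit3b, so its value is uncertain. The table lists that copy as I830012O16Rik, with 228 reads over the sham libraries and 125 over those of IRI.

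Of the oligoadenylate synthetases, whose product activates RNase L, Oas1a was higher in every IRI library. It stood at 0.521, 0.523 and 0.646 RPKM in sham and at 2.29, 1.32 and 1.30 RPKM after IRI (log2 1.57 ± 0.32, adjusted p = 0.00369). Its whole transcript is near-identical to Oas1g, which had 12 reads in sham and 74 in IRI, so the value of Oas1a is uncertain. Oasl2 stood at 0.738, 0.314 and 0.540 RPKM in sham and at 1.98, 1.97 and 0.846 RPKM after IRI (log2 1.62 ± 0.41, adjusted p = 0.0122), with IRI replicate 3 close to sham replicate 1. Oas2 had no call and overlapping groups (0.113 to 0.217 RPKM in sham, 0.163 to 0.414 RPKM after IRI, log2 0.68 ± 0.43, adjusted p = 0.226). Oas3 was nearly silent, with 2 reads in sham replicate 1 and 0 in each other library.

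The Mx GTPases, which trap viral nucleocapsids, were close to the detection limit. Mx1 had 5, 0 and 0 reads in sham and 18, 10 and 3 after IRI, a ratio of scaled reads of 6.46 (exact 95% interval 2.49 to 21.3, which covers counting error only), and was not tested. Mx2 had 17, 7 and 10 reads in sham and 23, 29 and 40 after IRI and was called higher (log2 1.5 ± 0.43, adjusted p = 0.0198). That call was lost without sham replicate 2, sham replicate 3 or IRI replicate 3 (adjusted p of 0.0748, 0.06 and 0.0752). Mx2 also shares 34.8% of its transcript with Mx1, and Isg15 shares 63.8% of its own with an unnamed copy, so both values are uncertain to that extent.

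Bst2 and Ifi35, the most abundant type I targets, changed by smaller amounts. Bst2 (tetherin), which holds budding virus at the cell surface, had the highest level of all 38 genes in both groups. It stood at 47.5, 54.0 and 47.6 RPKM in sham and at 65.3, 99.1 and 56.3 RPKM after IRI (log2 0.60 ± 0.20, adjusted p = 0.0375). Without IRI replicate 2 its log2 value was 0.31 and the call was lost (adjusted p = 0.107), as it was without any 1 of the sham libraries (0.0668 to 0.12), with scaling by upper quartile (0.0721) or by library size alone (0.106). Ifi35 was second in sham, at 26.3, 26.1 and 24.9 RPKM, and reached 42.2, 38.5 and 36.7 RPKM after IRI (log2 0.64 ± 0.09, adjusted p = 0.000747). Its groups were well apart. Trim25, a ubiquitin ligase that acts on the sensor Ddx58, went from 1.66 ± 0.129 to 2.37 ± 0.518 RPKM (log2 0.55 ± 0.18, adjusted p = 0.0328). This call was lost without any 1 of the sham libraries or IRI replicate 1, and also when libraries were scaled by upper quartile or by size alone (adjusted p from 0.0719 to 0.176). Ifi44 was above sham in every IRI library, at 0.881, 0.261 and 1.11 RPKM against 2.63, 1.20 and 1.76 RPKM, without a call (log2 1.35 ± 0.50, adjusted p = 0.059). DESeq2 and limma-voom did call Ifi44 (adjusted p = 0.0131 and 0.0373).

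**Figure D3:**
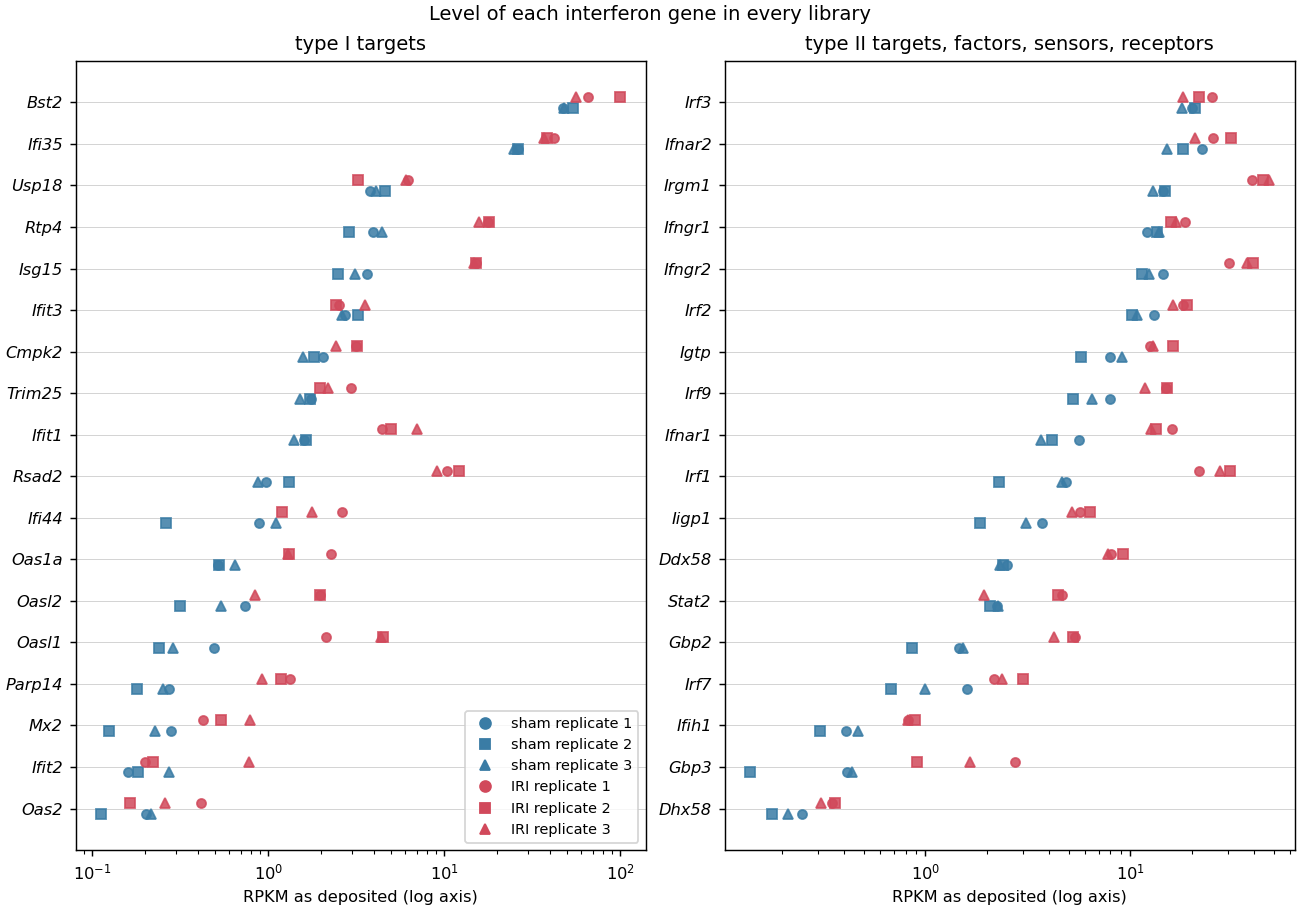
Deposited RPKM of each tested gene in each of the 6 libraries (log axis), with sham in blue, IRI in red and a symbol for each replicate number. For Isg15, Rsad2, Irgm1 and Irf1 the red points lie well to the right of the blue ones, while they mix for Ifit3, Usp18, Oas2 and Irf3.

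All 5 type II targets were called higher, and in each of them every IRI library lay above every sham library. The guanylate-binding proteins Gbp2 and Gbp3, which attack the membranes around intracellular pathogens, were low in sham. Gbp2 stood at 1.46, 0.864 and 1.53 RPKM in sham and at 5.37, 5.24 and 4.23 RPKM after IRI (log2 1.98 ± 0.24, adjusted p = 0.000269). Gbp3 stood at 0.414, 0.140 and 0.440 RPKM in sham and at 2.73, 0.909 and 1.65 RPKM after IRI (log2 2.45 ± 0.52, adjusted p = 0.00594), with a wide spread in both groups. The immunity-related GTPase Irgm1, a regulator of this GTPase family and of autophagy, was the most abundant of the 5. It stood at 14.4, 14.8 and 12.8 RPKM in sham and at 39.3, 44.5 and 47.4 RPKM after IRI (log2 1.68 ± 0.11, adjusted p = 1.71e-05). Irgm1 moved from rank 5 to rank 2 in level among the 38 genes. Its relatives Igtp and Iigp1 went from 7.61 ± 1.71 to 13.8 ± 1.99 RPKM and from 2.89 ± 0.946 to 5.74 ± 0.565 RPKM (log2 0.90 ± 0.19 and 1.03 ± 0.24, adjusted p = 0.00459 and 0.00776).

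Among the transcription factors, Irf1 changed the most. Irf1, an activator that interferon gamma and NF-kB can induce, stood at 4.84, 2.30 and 4.64 RPKM in sham and at 21.6, 30.6 and 27.5 RPKM after IRI. It rose 6.96-fold (log2 2.80 ± 0.30, adjusted p = 0.000378). Irf2, which competes with Irf1 for the same sites, stood at 13, 10.2 and 10.8 RPKM in sham and at 18.1, 18.9 and 16.2 RPKM after IRI (log2 0.68 ± 0.13, adjusted p = 0.00262). Irf1 was below Irf2 in every sham library and above it in every IRI library. Irf7, which amplifies type I interferon production, went from 1.60, 0.678 and 0.993 RPKM to 2.15, 3.01 and 2.37 RPKM (log2 1.24 ± 0.31, adjusted p = 0.0112). Irf3, which is present before infection and is activated by phosphorylation, gave 19.9, 20.6 and 17.9 RPKM in sham and 25.0, 21.7 and 18 RPKM after IRI. Its groups overlapped and it had no call (log2 0.18 ± 0.13, adjusted p = 0.27).

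Irf9 and Stat2, partners in the complex that binds the response element, differed. Irf9 stood at 7.96, 5.23 and 6.48 RPKM in sham and at 14.9, 15.0 and 11.8 RPKM after IRI (log2 1.12 ± 0.17, adjusted p = 0.000845). Stat2 stood at 2.22, 2.06 and 2.26 RPKM in sham and at 4.66, 4.44 and 1.94 RPKM after IRI, so IRI replicate 3 lay below every sham library. It had no call (log2 0.79 ± 0.30, adjusted p = 0.0611), but was called higher without IRI replicate 3 (log2 1.10, adjusted p = 0.0011) and by DESeq2 (adjusted p = 0.0277).

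Of the RNA sensors, Ddx58 (RIG-I) and Ifih1 (MDA5), the helicases that start the antiviral signal, were called higher. Ddx58 stood at 2.50, 2.39 and 2.31 RPKM in sham and at 8.07, 9.19 and 7.79 RPKM after IRI (log2 1.83 ± 0.12, adjusted p = 1.34e-05). Ifih1 stood at 0.412, 0.307 and 0.468 RPKM in sham and at 0.825, 0.891 and 0.824 RPKM after IRI (log2 1.14 ± 0.21, adjusted p = 0.00261). Neither gene had overlapping groups. Dhx58 (LGP2), which lacks the signalling domain of the others, also lay higher in every IRI library, at 0.351, 0.364 and 0.309 RPKM against 0.249, 0.179 and 0.215 RPKM. With 55 reads over the sham libraries and 86 over those of IRI it had no call (log2 0.70 ± 0.32, adjusted p = 0.107).

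All 4 receptor subunits were called higher, by unequal amounts. Ifnar1 stood at 5.63, 4.14 and 3.65 RPKM in sham and at 16.0, 13.4 and 12.6 RPKM after IRI, a rise of 3.20-fold (log2 1.68 ± 0.17, adjusted p = 0.00011). Ifngr2, the signalling subunit of the type II receptor, stood at 14.5, 11.5 and 12.3 RPKM in sham and at 30.5, 39.8 and 37.0 RPKM after IRI (log2 1.52 ± 0.14, adjusted p = 6.24e-05). These calls held under every alternative tried. Their partners moved less. Ifnar2 stood at 22.3, 18.1 and 15.0 RPKM in sham and at 25.3, 30.8 and 20.8 RPKM after IRI, the only called member whose groups overlapped (log2 0.51 ± 0.18, adjusted p = 0.0481). This call was lost under 8 of the 14 alternatives, among them RLE size factors (adjusted p = 0.0539) and the sets without sham replicate 2 or 3 or IRI replicate 1 or 2 (0.0936 to 0.186). Ifngr1, the ligand-binding subunit, stood at 12.0, 13.5 and 13.8 RPKM in sham and at 18.4, 15.8 and 16.7 RPKM after IRI (log2 0.41 ± 0.11, adjusted p = 0.013). That call was lost with upper-quartile scaling (0.0545), with library size alone (0.163) and without sham replicate 1 (0.0578).

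Ratios of RPKM within a library do not depend on how libraries are scaled. The pairs were chosen after their values were seen, so the ratios are given without a test. Ifnar1 stood at 0.252, 0.229 and 0.243 of Ifnar2 in sham and at 0.632, 0.435 and 0.608 after IRI. The ratio of Ifngr2 to Ifngr1 was 1.20, 0.848 and 0.894 in sham and 1.66, 2.51 and 2.22 after IRI. In both receptors the subunit that changed more was thus higher relative to its partner in every IRI library. Irf1 over Irf2 went from 0.225 to 0.431 in sham to 1.19 to 1.70 after IRI. Rsad2 over its neighbour Cmpk2 went from 0.475 to 0.729 in sham to 3.25 to 3.78 after IRI, and Ifit1 over Ifit3 from 0.507 to 0.586 to 1.76 to 2.06. Oasl1 over Oasl2 varied the most between IRI libraries, at 1.07, 2.27 and 5.14, against 0.533 to 0.767 in sham.

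**Figure D4:**
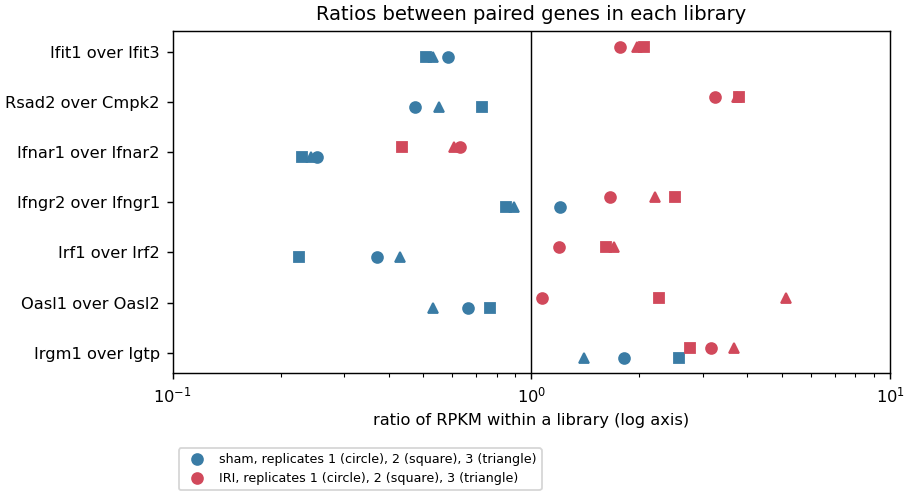
Ratio of RPKM between 2 genes of the same library (log axis), with sham in blue and IRI in red. In each of the 7 pairs the IRI libraries lie above the sham libraries, and the pairs Ifit1 over Ifit3, Rsad2 over Cmpk2, Irf1 over Irf2 and Oasl1 over Oasl2 cross from below 1 to above 1.

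The libraries did not contribute alike. Among the 36 tested genes, IRI replicate 2 had the highest value of the IRI libraries (in CPM) in 18 and IRI replicate 3 the lowest in 19. Of the sham libraries, replicate 1 was highest in 18 and replicate 2 lowest in 20. The SD between IRI libraries reached 82.5% of the mean for Ifit2, 51.1% for Gbp3, 44.5% for Oas2 and 40.7% for Stat2. In sham it was largest for Ifi44, at 58.7%.

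Transcripts of the interferons themselves were scarcely detected. Of 18 interferon genes found in the table, 15 had 0 reads in all 6 libraries, among them Ifng and the 11 numbered Ifna genes read. The limit that a count of 0 allows is 3 reads, or 0.118 to 0.163 CPM in sham and 0.135 to 0.145 CPM after IRI. That limit covers uniquely aligned reads only. Reads that align equally to several interferon genes entered no count, and the search for copies did not cover these genes. Ifnb1 (interferon beta) was at 0 reads throughout sham and at 0, 1 and 3 reads after IRI. The type III interferon gene Il28b had 0, 0 and 1 reads in sham and 0, 1 and 4 after IRI, and Ifnk had 2 reads over sham and 3 over IRI. None of these genes passed the filter.

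The kinases and other genes of the pathway, listed by role, were mostly higher too. Of 117 listed genes, 109 were found in the table and 75 were tested, of which 46 were called higher and 1 was called lower, where 24.2% of all genes tested were called higher and 21.2% lower. The counts of the separate lists below stand beside those same shares, and these lists too were chosen with earlier results of these data known. In 51 of the 75 tested genes, every IRI library lay above every sham library (29.2% of all genes tested). In 4 of them every IRI library lay below (27.2% of all genes tested). Of the Janus kinases, Jak2 went from 2.33 ± 0.226 to 8.56 ± 0.769 RPKM (log2 1.91 ± 0.13, adjusted p = 1.8e-05) and Jak1 from 8.16 ± 0.549 to 15.0 ± 0.577 RPKM (log2 0.92 ± 0.09, adjusted p = 0.000114). Tyk2, which serves Ifnar1, had no call (log2 0.36 ± 0.18, adjusted p = 0.131), but was called higher without IRI replicate 3 (adjusted p = 0.0321). The receptor subunits of type III interferon rose: Il28ra from 0.880 ± 0.0951 to 2.95 ± 0.462 RPKM and Il10rb, whose gene lies between Ifnar2 and Ifnar1, from 11.2 ± 2.57 to 22.5 ± 3.56 RPKM (log2 1.78 ± 0.19 and 1.04 ± 0.18, adjusted p = 0.000139 and 0.00188).

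Of 6 inhibitors of interferon signalling, 3 were called higher and 1 lower. The cytokine-induced inhibitor Socs3 went from 1.40 ± 0.561 to 32.4 ± 7.16 RPKM and its relative Cish from 18.4 ± 2.36 to 61.3 ± 14.2 RPKM. Socs1, the family member best known for restraining interferon gamma signals, stood at 3.33, 4.22 and 5.04 RPKM in sham and at 3.46, 3.73 and 4.20 RPKM after IRI and had no call (log2 -0.10 ± 0.22, adjusted p = 0.731). The phosphatase Ptpn2 rose (log2 0.62 ± 0.09, adjusted p = 0.000763), while Ptpn6 fell from 8.21 ± 0.193 to 4.71 ± 0.564 RPKM (log2 -0.76 ± 0.13, adjusted p = 0.00182). Pias1 had no call (log2 -0.05 ± 0.10, adjusted p = 0.717).

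Among 16 tested adaptors and kinases of nucleic acid sensing, 9 were called higher and 0 lower (11 higher and 0 lower at an unadjusted p under 0.05, and 9 and 0 by DESeq2). Tmem173 (STING), the adaptor of DNA sensing, stood at 1.98, 2.15 and 2.54 RPKM in sham and at 20.5, 22.0 and 10.1 RPKM after IRI (log2 3.02 ± 0.30, adjusted p = 0.000227). Mavs, the adaptor of Ddx58 and Ifih1, stood at 39.3, 42.0 and 39.7 RPKM in sham and at 38.7, 31.6 and 17.7 RPKM after IRI, with no call (log2 -0.43 ± 0.25, adjusted p = 0.207). Every IRI library of Mavs lay below every sham library, IRI replicate 1 only just. For both adaptors IRI replicate 3 was the lowest of its group. Traf3, the kinase Tbk1 and Ifi204 rose (log2 1.17 ± 0.14, 0.70 ± 0.12 and 3.38 ± 0.63, adjusted p = 0.000264, 0.00137 and 0.00261), and Azi2 had no call (log2 0.25 ± 0.10, adjusted p = 0.0759), but was called higher without IRI replicate 3 (log2 0.32, adjusted p = 0.0382).

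Of further type I targets, 18 of 32 tested were called higher and 0 lower (19 and 0 at an unadjusted p under 0.05, and 18 and 0 by DESeq2). The exonuclease Isg20 rose the most of those named, from 0.485 ± 0.106 to 8.58 ± 1.78 RPKM (log2 4.19 ± 0.25, adjusted p = 1.06e-05). Ifitm3, which blocks viral entry, rose from 9.77 ± 2.68 to 42.8 ± 14.1 RPKM, while its abundant relative Ifitm2 stood at 244 ± 3.7 and 211 ± 16.2 RPKM with no call (log2 2.17 ± 0.28 and -0.17 ± 0.10, adjusted p = 0.000548 and 0.174). Ifitm2 was called lower when scaled by upper quartile (adjusted p = 0.0325) or by library size alone (0.00692). Nt5c3 and Tdrd7 rose (log2 0.95 ± 0.10 and 1.00 ± 0.12, adjusted p = 0.000153 and 0.000226), and Ifi27l1 had no call (log2 -0.13 ± 0.13, adjusted p = 0.438), but was called lower when scaled by library size alone (adjusted p = 0.0424).

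Of further type II targets, 12 of 15 tested were called higher and 0 lower (13 and 0 at an unadjusted p under 0.05, and 11 and 0 by DESeq2). The GTPase Ifi47 went from 3.45 ± 0.911 to 13.5 ± 2.62 RPKM and the immunoproteasome subunit Psmb8 from 5.19 ± 0.62 to 11.3 ± 1.52 RPKM (log2 2.01 ± 0.22 and 1.16 ± 0.15, adjusted p = 0.000165 and 0.000386). The near-identical GTPases Tgtp1 and Tgtp2 both rose (log2 2.31 ± 0.32 and 2.32 ± 0.38, adjusted p = 0.000511 and 0.00132). Reads that align equally to both have no unique alignment and entered neither count, so both values are uncertain. The search for copies did not cover these 2 genes. Ciita, the activator of class II antigen presentation genes that interferon gamma induces, had 51 reads over sham, 32 over IRI and no call (log2 -0.71 ± 0.77, adjusted p = 0.485), and Cd274 had no call (log2 0.76 ± 0.38, adjusted p = 0.132). Among the genes of this list below the filter, Cxcl9 had 0, 1 and 1 reads in sham and 0, 0 and 8 after IRI, and Ido1 had 2 reads over each group.

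**Figure D5:**
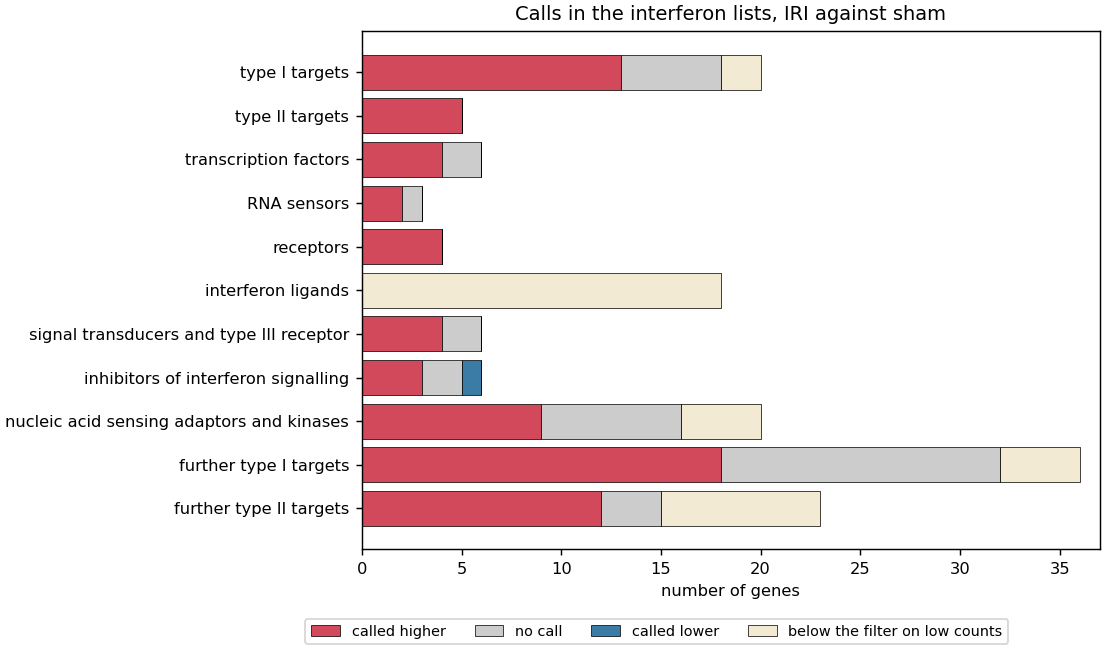
Number of genes per list (horizontal axis) that were called higher, had no call, were called lower or were below the filter on low counts, for the 5 roles of the 38 genes and the 6 other lists of the pathway. The 18 interferon genes are all below the filter, and the 1 gene called lower, Ptpn6, is among the inhibitors.

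Markers of leukocytes and endothelium were read in the same libraries. The 18 macrophage and dendritic cell markers summed to 72.3, 121 and 324 CPM in sham and to 258, 277 and 356 CPM after IRI, and so sham replicate 3 lay within the IRI range. Of 13 tested, 4 were called higher (Cd68, Cd14, Lyz2 and Ptprc) and 0 lower by edgeR and DESeq2 (5 and 0 at an unadjusted p under 0.05), against 24.2% of all genes called higher. Cd68, a lysosomal protein of macrophages, rose 41.9-fold, from 0.631 ± 0.226 to 25.7 ± 9.53 RPKM (log2 5.39 ± 0.37, adjusted p = 3.88e-05), a larger change than that of any of the 36 interferon genes tested. Cd14, the co-receptor for bacterial lipopolysaccharide, rose 4.14-fold, from 5.07 ± 1.62 to 20.6 ± 5.89 RPKM (log2 2.05 ± 0.29, adjusted p = 0.000975). The other 9 tested had no call. Among them were Cd74, the most abundant of the list (log2 0.40 ± 0.72, adjusted p = 0.688), and Csf1r (log2 0.29 ± 0.47, adjusted p = 0.649). Csf1r, C1qa and C1qb had 37, 30 and 59 reads over sham and 43, 32 and 57 over IRI. Below the filter, Mrc1 had 25 reads over sham and 26 over IRI, and Emr1 and Itgam had 2 and 3 over sham and 7 and 27 over IRI. Of the 12 neutrophil markers none passed the filter, and they summed to 0 to 0.118 CPM in sham and 0.145 to 5.43 CPM after IRI. The 13 T and NK cell markers summed to 1.10 to 16.8 CPM in sham and 0.269 to 10.4 CPM after IRI, the 5 B cell markers to 2.28 to 49.9 and 7.14 to 27.1 CPM, and the 9 endothelial markers to 1.61 to 7.40 and 7.65 to 17.2 CPM. The 6 markers of plasmacytoid dendritic cells, leukocytes known for making type I interferon, summed to 16.9 to 27.8 CPM in sham and 17.6 to 23.8 CPM after IRI. Of the 3 tested, Irf8, a transcription factor of several leukocyte types, was called higher (0.357 ± 0.284 to 1.35 ± 0.603 RPKM, log2 1.99 ± 0.56, adjusted p = 0.0221), and Tcf4 and Ly6d had no call. Siglech had 2 reads over sham and 5 over IRI. The part of these cells in the changes of the interferon genes was not tested.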

How the data were processed

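RNA of sorted EGFP-positive cells (3 sham and 3 IRI samples, grouped by title) was amplified with SMARTer chemistry, per the labels' protocols. The deposited counts are whole reads per gene, not normalized; the submitters' processing notes name STAR, HTSeq, edgeR and mm9 without versions. The deposited RPKM values equal the count divided by the listed length and an effective library size of 0.917 to 1.09 of the gene total, so they are not independent of the counts. Genes held 49.1% to 50.7% of recorded reads, and 39.95% to 42.36% had no unique alignment. These and the other rows without a gene entered neither library sizes nor tests. Counting was not stranded, per the labels of the deposited files, so reads of Dhx58, Gbp2, Ifi35, Irf1, Irf3, Irf7, Oasl1 and Usp18 cannot be told apart from exons on the opposite strand that overlap them by 24 to 290 bases (GENCODE M21); Ifnar2, Igtp, Irf9, Parp14 and Rtp4 overlap another gene's exons on their own strand, and all these values carry that uncertainty. Copies at 95% identity over at least 30% of the transcript were sought with BLAST for all members and found for Ifit3, Oas1a, Mx2 and Isg15.

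The test was that of edgeR 4.0.16 under R 4.3.3 (filterByExpr, TMM, robust quasi-likelihood fit with group as the term, all 6 samples) and p-values were adjusted by Benjamini-Hochberg over 13881 genes; standard errors come from the F statistic. No library repeated another: chi-square over its degrees of freedom was 16.9 to 46.3 for libraries within a group (152 to 221 across groups). CPM used TMM-scaled library sizes. Alternatives were other scalings and filters, DESeq2 1.42.0, limma-voom (limma 3.58.1), a replicate block and leaving out each library. On counts simulated for IRI against sham (13650 genes tested), calls were made for 79 of 100 genes set to 2-fold, 100 of 100 set to 4-fold and 12 of 13450 left unchanged. Every simulated gene had the same biological coefficient of variation (19.04%), and changes were set only in genes above a minimum mean count. These rates therefore do not cover members with few reads or a wider spread. The members and lists were chosen with earlier results of these data known. The rule named every member, up to 4 called genes of each pathway list by smallest adjusted p and 2 others by level, and up to 3 genes of each marker list by level. Cxcl9, Ido1, Ifng, Ifnk, Siglech, Lyz2, Ptprc, Emr1, Itgam, Csf1r, C1qa, C1qb, Mrc1, Cx3cr1, Flt1, Atp6v1b1, Kit, Lcn5, Lcn8, Oas1g and the copy of Ifit3 were named after their values were seen. Of the genes that this rule names, 1 is not reported here.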

Additional observations from a re-analysis of the deposited data

How the results depend on the processing

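Of the 28 members called higher, 22 kept their call and direction under all 14 alternatives, and Mx2, Bst2, Cmpk2, Trim25, Ifnar2 and Ifngr1 lost it under some, as given above. The number of members called higher was 23 to 30 over the alternatives (30 with DESeq2, 29 with limma-voom, 24 with upper-quartile scaling, 23 with library size alone, and 23 to 28 without any 1 library), and 0 were called lower under each. The median log2 fold change over all tested genes moved by -0.20 with library size alone and by -0.12 with upper-quartile scaling, so changes below that size are relative to the scaling; all genes called higher and lower numbered 3364 and 2948 as tested, 2748 and 3789 with upper-quartile scaling and 2400 and 4337 with library size alone. Values near 0 changed sign: Ifit3 stood at -0.11 with upper-quartile scaling, -0.19 with library size alone, -0.027 with no filter on low counts, -0.014 with limma-voom, -0.0055 with the replicate block, and between -0.18 and 0.10 without any 1 library (-0.05 without sham replicate 1, -0.08 without sham replicate 3, -0.18 without IRI replicate 3); Irf3 stood at -0.013 with library size alone; without any 1 library, Socs1 ran from -0.28 to 0.012 and Ciita from -1.25 to 0.30, both above 0 without sham replicate 3. The cause of these shifts was not tested. The main test did not pair samples by replicate number. The deviations of same-numbered samples from their group means correlated at 0.182, 0.0952 and 0.178, and those of other pairs at -0.172 to 0.0297. Each sample thus correlated best with its own number, a hint of pairing that the design does not state. In the sample titles, same-numbered sham and IRI samples also carry consecutive numbers. Whether they were handled as pairs is not known. With the replicate number as a block, 29 members were called higher and 0 lower (3368 and 3095 of all genes), with Ifi44 gained (log2 1.47, adjusted p = 0.0093). Depth limits Mx1, Mx2, Oas1a, Oas2, Oas3, Oasl1, Ifit2, Gbp3 and Dhx58, each under 100 reads in the sham libraries together. Ifit2 and Ciita were not tested under the stricter filter, for which they had too few reads.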

Other observations

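Values that belong to no comparison stood together in IRI replicate 3, and were picked after they were seen. The granzyme gene Gzmb, of cytotoxic lymphocytes, had 63 reads in that library and 0 in each of the others. Ifnb1 had 3 of its 4 reads there and Il28b 4 of its 6, and Ifit2 had 70 reads there against 17 to 21 in the other libraries. In the same library Stat2, Tmem173 and Mavs were the lowest of the IRI group, but so were 19 of the 36 tested members. These are single values of 1 library, without a test.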
